A study of Danio rerio with 8 samples.

Results

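The zinc finger and TRIM families are 2 large groups of genes with many near copies in fish. Of the 1293 genes in the authors' deposited table of differences between iqgap1 mutant and wild-type zebrafish embryos, 49 carried a name starting with znf, zbtb, zfp, trim, btr or ftr followed by a digit or letter. These were 29 zinc finger rows (26 named znf plus a number, 2 named zbtb, and znfl2a) and 20 TRIM rows (8 btr, 9 ftr and 3 trim). No row had a zfp name. The 4 wild-type and 4 mutant libraries were made from RNA of whole embryos at 53 hours post fertilisation. The mutants were homozygous for a mutation of iqgap1 and had been chosen for visible hemorrhage, while the labels say nothing more of the wild-type embryos or of the allele. The design text gives 20 embryos to a pool, whereas the extraction protocol speaks of single larvae. Nothing says that the pools came from separate crosses, so the p-values measure the spread between these libraries, which may be technical.

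Most proteins of the znf group hold arrays of C2H2 zinc fingers, short folds in which cysteines and histidines grip a zinc ion and which bind DNA in a row, each finger reading a few bases. Proteins of the zbtb group add a BTB domain, which pairs the protein with itself or with partners. TRIM proteins join a RING domain, which passes ubiquitin to target proteins, to B-box zinc fingers and a coiled coil, and many end in a B30.2 domain that recognises the target. The ftr genes are the finTRIM family of fishes, whose first members were found as transcripts induced by virus infection in trout. The btr genes are named after zebrafish bloodthirsty, a TRIM gene reported as needed for red cell formation. These genes lie in clusters of close copies, so a short read from 1 copy can match another.

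Every gene of the table had been selected by the authors for a difference between these groups, with their adjusted p under 0.05 and a fold change above 1.5. That a member differs is therefore not a finding here. Nor is a lack of overlap between the 2 groups of a row, which held for 89.5% of all listed genes. What the data show is which members were higher or lower, by how much, in which pools, and how firmly. Levels are given as normalised counts, which are RSEM expected counts divided by a size factor per library. Adjusted p-values are those of edgeR's quasi-likelihood test, adjusted over 26889 genes, most of which are not in the table. The test called 752 of the 1126 listed genes it could be run on at an adjusted p under 0.05 (66.8%), with 37.5% called higher and 29.3% called lower in the mutants. Each library held 354272 to 552331 expected counts in the listed genes; sequencing depth cannot be read from so few genes. The mutated gene itself, iqgap1, had 2185, 2118, 2212 and 2115 normalised counts in wild-type pools 1 to 4 and 1111, 970.0, 902 and 1245 in mutant pools 1 to 4, lower in every mutant pool (log2 fold change -1.03 ± 0.12 (SE), edgeR adjusted p = 0.000992). In whole-embryo RNA, fewer cells of a type and less RNA per cell cannot be told apart.

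Most TRIM rows had higher values in the mutants, while the zinc finger rows divided much like the rest of the table. By deposited value all 8 btr rows were higher, with 6 of the 9 ftr and 1 of the 3 trim rows. The excess of higher TRIM rows thus lay in the btr rows. All 8 btr rows had expected counts that were not whole in 1 or more libraries, so they may share reads and cannot be counted as independent. Among the values of the authors' deposited table, 15 of the 20 TRIM rows and 17 of the 29 zinc finger rows were higher, beside 58.9% of all listed genes. The median deposited log2 fold change was 1.33 for TRIM rows, 0.63 for zinc finger rows and 0.72 for the whole table. In the same order the median of the mean counts was 21.7, 70.2 and 50.1. Rows with few counts pass a threshold on adjusted p only with larger fold changes, so these medians do not compare the strength of a response. The edgeR quasi-likelihood test called 13 of 16 tested TRIM rows (9 higher and 4 lower) and 14 of 28 tested zinc finger rows (9 higher and 5 lower), against 66.8% of the whole table. For 4 TRIM rows and 1 zinc finger row the counts were too low to be tested. No test of the difference between the families was made, because genes that share reads are not independent. The calls depended on the scaling. Size factors by median of ratios (RLE) over the listed genes, which move the log2 fold change of every gene by -0.52, left 0 zinc finger and 2 TRIM rows called higher, with 10 and 4 called lower. TMM scaling, a shift of -0.38, gave 2 and 3 higher, with 10 and 4 lower. Over the whole table RLE called 113 genes higher and 465 lower and TMM 162 and 451, beside 422 and 330 in the main fit. The loss of higher calls was therefore not particular to these families. Both shifts act downward on every gene and are smaller than the lowest absolute fold change in the table (0.59 on the log2 scale), so neither could turn a direction and both enlarge every fall.

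**Figure D1:**
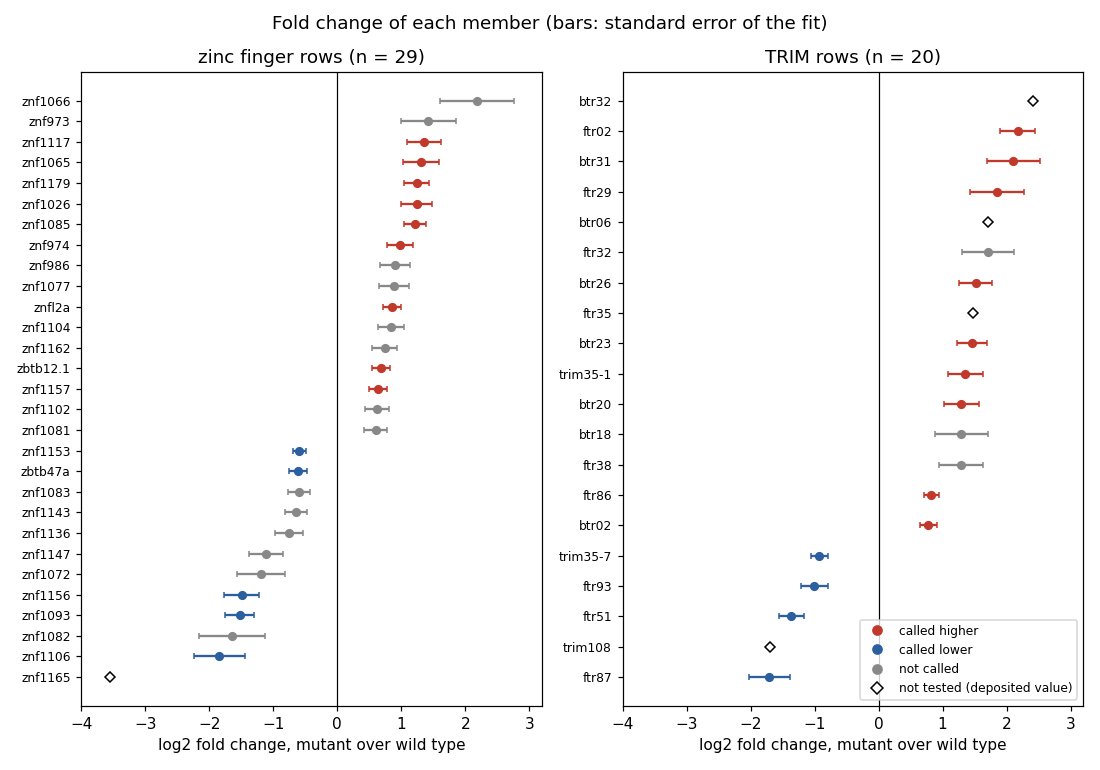
The horizontal axis is the log2 fold change of mutant over wild type for each of the 29 zinc finger rows (left) and 20 TRIM rows (right). Bars are the SE derived from the F statistic of the test. Filled circles are coloured by the call of the edgeR quasi-likelihood test, and open diamonds are the authors' deposited values of the 5 rows with counts too low to test; 5 TRIM rows and 12 zinc finger rows lie left of 0.

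The btr rows all pointed the same way. In the authors' deposited table each of the 8 was higher, from 0.77 (btr02) to 2.41 (btr32) on the log2 scale, and 5 of the 6 that could be tested rose, beside 58.9% of all listed genes higher and 37.5% of those tested called higher. Their summed level was 167, 173, 155 and 152 normalised counts in wild-type pools 1 to 4 and 325, 406, 371 and 355 in mutant pools 1 to 4. The group means were 162 ± 9.78 and 364 ± 33.5 (SD, n = 4 each), and the sums did not overlap, as the selection of rows that all differed one way would give.

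Of the single btr rows, btr26 had 20.7, 42.3, 18.3 and 22.6 normalised counts in wild-type pools 1 to 4 and 70.6, 88.6, 62.5 and 72.2 in the mutant pools. It rose 2.86-fold, with a log2 fold change of 1.52 ± 0.26 (SE; edgeR adjusted p = 0.00868), and its highest wild-type pool, number 2, still lay below every mutant pool. Its neighbour btr23, with 2 protein-coding genes between them in the GRCz12tu annotation, had 27.5, 33.6, 18.8 and 20.2 in wild type and 54.8, 66.3, 78.4 and 77.8 in the mutants (log2 fold change 1.46 ± 0.23, edgeR adjusted p = 0.00559). In both rows no mutant pool came within the wild-type range. For btr20 the wild-type pools had 17, 9.62, 10.7 and 10.1 and the mutant pools 21.6, 36.7, 32.7 and 28.1 normalised counts, with wild-type pool 1 the highest of its group and still under the lowest mutant pool (log2 fold change 1.29 ± 0.27, edgeR adjusted p = 0.0243). The btr row with the most counts was btr02, at 87.5, 76.8, 88.6 and 85.7 in wild type and 126, 157, 162 and 135 in the mutants, a rise of 1.71-fold (edgeR adjusted p = 0.00792). The remaining called row, btr31, rested on few counts, 4.58, 0.997, 3.39 and 0.922 in wild type and 11.6, 11.4, 10.2 and 11.7 in the mutants (log2 fold change 2.11 ± 0.41, edgeR adjusted p = 0.0185). The mutant pools of btr31 were nearly level, and neither its groups nor those of btr02 overlapped. The row btr18 was not called (log2 fold change 1.29 ± 0.41, edgeR adjusted p = 0.226). Its mutant pool 4 had 11.2 normalised counts, below 12.6 in wild-type pool 3, so the groups overlapped. The expected counts of btr32 were 1.08, 4, 0 and 0 in wild-type pools 1 to 4 and 8.16, 9, 1.05 and 8 in the mutant pools, and those of btr06 were 3.71, 2.01, 3.18 and 2 in wild type and 7, 10.7, 4 and 10.0 in the mutants. Over the summed counts the ratio of mutant to wild type was 6.08 for btr32 (95% exact binomial interval 2.30 to 20.3) and 3.40 for btr06 (1.67 to 7.48), intervals that cover counting error only.

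The ftr rows, the finTRIM genes, went both ways. By deposited value 6 of the 9 were higher and 3 lower, and the test called 3 in each direction among the 8 tested, near the shares over all listed genes (58.9% higher and 66.8% called). Their sums over all 9 rows differed by less than the spread between pools, at 416 ± 52.4 (wild type) and 422 ± 24.6 (mutant) normalised counts (SD, n = 4 each). The 6 higher rows summed to 143 ± 11.9 and 314 ± 23.5, and the 3 lower rows to 273 ± 48.7 and 107 ± 6.85, a separation that the split by sign fixes.

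Among the higher finTRIM genes ftr02 had the largest rise. It went from 4.35, 7.66, 11 and 11.2 normalised counts in wild-type pools 1 to 4 to 38.5, 47.1, 36.7 and 37.4 in the mutant pools, 4.51-fold (log2 fold change 2.17 ± 0.27 (SE), edgeR adjusted p = 0.00134). Every mutant pool had more than 3 times the count of the highest wild-type pool. Of the TRIM rows called higher, ftr02 and btr23 were the 2 that remained called with RLE scaling (log2 fold changes 1.66 and 0.94, edgeR adjusted p = 0.00562 and 0.0489). The row ftr86 had 111, 109, 109 and 94 in wild type and 198, 180.1, 203 and 167 in the mutants, a rise of 1.77-fold (edgeR adjusted p = 0.00325). Its wild-type pool 4 was the lowest of the group, and the groups lay far apart. Counts of ftr29 were lower and more scattered, 7.64, 2.21, 12.4 and 6.59 in wild type and 36.4, 26.9, 27.6 and 15.2 in the mutants, and its call was close to the threshold (log2 fold change 1.85 ± 0.42, edgeR adjusted p = 0.0431). The related rows ftr32 (1.71 ± 0.40, edgeR adjusted p = 0.0501) and ftr38 (1.29 ± 0.34, edgeR adjusted p = 0.0962) were not called. Mutant pool 1 had the lowest ftr38 of its group, 12.6 normalised counts against 23.1 to 32.3 in the others, and without it ftr38 was called (edgeR adjusted p = 0.0211). Expected counts of ftr35 were 2.9, 2.71, 4.79 and 2.88 in wild type and 10.4, 9.14, 5.15 and 7.69 in the mutants, a ratio of 2.88 over the summed counts (95% exact binomial interval 1.47 to 5.98). In GRCz12tu the rows ftr38, ftr35 and ftr29 follow one another with 3 and 6 protein-coding genes between them, and all 3 had higher deposited values, though the Ensembl ID of the ftr29 row is named ftr31 in the gene-name table.

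The 3 lower finTRIM genes all fell. For ftr51 the wild-type pools had 257, 148, 203 and 152 normalised counts and the mutant pools 83, 77, 60.1 and 74.2, a log2 fold change of -1.36 ± 0.20 (SE; edgeR adjusted p = 0.00328). Wild-type pools 1 and 3 were higher than pools 2 and 4, yet all 4 exceeded the highest mutant pool. The row ftr87 went from 27, 31.9, 56.8 and 47.9 to 13.7, 10.4, 17.9 and 8.48 normalised counts, 3.27-fold lower (edgeR adjusted p = 0.0144). For ftr93 the values were 34.5, 42.9, 50.9 and 40.6 in wild type and 18.5, 19.8, 20.5 and 25.4 in the mutants (means 42.2 ± 6.8 and 21.1 ± 3.02, SD, n = 4 each; edgeR adjusted p = 0.0272). The ftr87 and ftr93 groups did not overlap either.

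Of the 3 rows named trim, both tested ones passed, in opposite directions. Both are named after mammalian TRIM35, a RING-type ubiquitin ligase. The row trim35-1 rose from 19.6, 9.97, 13.6 and 15.7 to 25.4, 36.4, 42.2 and 47.7 normalised counts (log2 fold change 1.35 ± 0.28 (SE), edgeR adjusted p = 0.0227), with the lowest mutant pool, number 1, above the highest wild-type pool, also number 1. The row trim35-7 fell from 157, 143, 183 and 137 to 87.2, 77.4, 83.3 and 78.9, a log2 fold change of -0.93 ± 0.13 with even mutant pools (edgeR adjusted p = 0.00306). The remaining row, trim108, had expected counts of 4, 11.8, 11 and 6 in wild type and 3, 2.43, 1.54 and 1.43 in the mutants. It was not tested, and the ratio of its summed counts was 0.284 (95% exact binomial interval 0.113 to 0.626).

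Leaving out single pools ended the calls of 6 of the 13 TRIM rows, while 7 were called in all 8 such fits: ftr02, btr26, btr23, ftr86, btr02, trim35-7 and ftr51. Each such fit kept 7 to 12 of the 13 calls, beside 525 to 684 of the 752 over the table. Where a call was lost, the log2 fold change of the row moved by less than its SE in the fit with all pools. The call of btr31 was lost without wild-type pool 2 or 4 or mutant pool 2 or 4 (edgeR adjusted p of 0.0539 to 0.0626), and that of ftr87 without wild-type pool 4 or mutant pool 2 or 4 (0.0502 to 0.0651). For ftr29 the fits without wild-type pool 1, 2 or 4 or mutant pool 1, 2 or 3 gave an adjusted p of 0.0785 to 0.144. For trim35-1 and btr20 those without wild-type pool 2, 3 or 4 or mutant pool 2, 3 or 4 gave 0.0672 to 0.0892 and 0.0637 to 0.0994. The ftr93 call was lost without wild-type pool 2, 3 or 4 or mutant pool 1, 2 or 3 (0.0638 to 0.103). Conversely ftr32 was called without wild-type pool 1 (edgeR adjusted p = 0.0487), which had 1.84 normalised counts against 10.0 to 13.1 in the others.

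**Figure D2:**
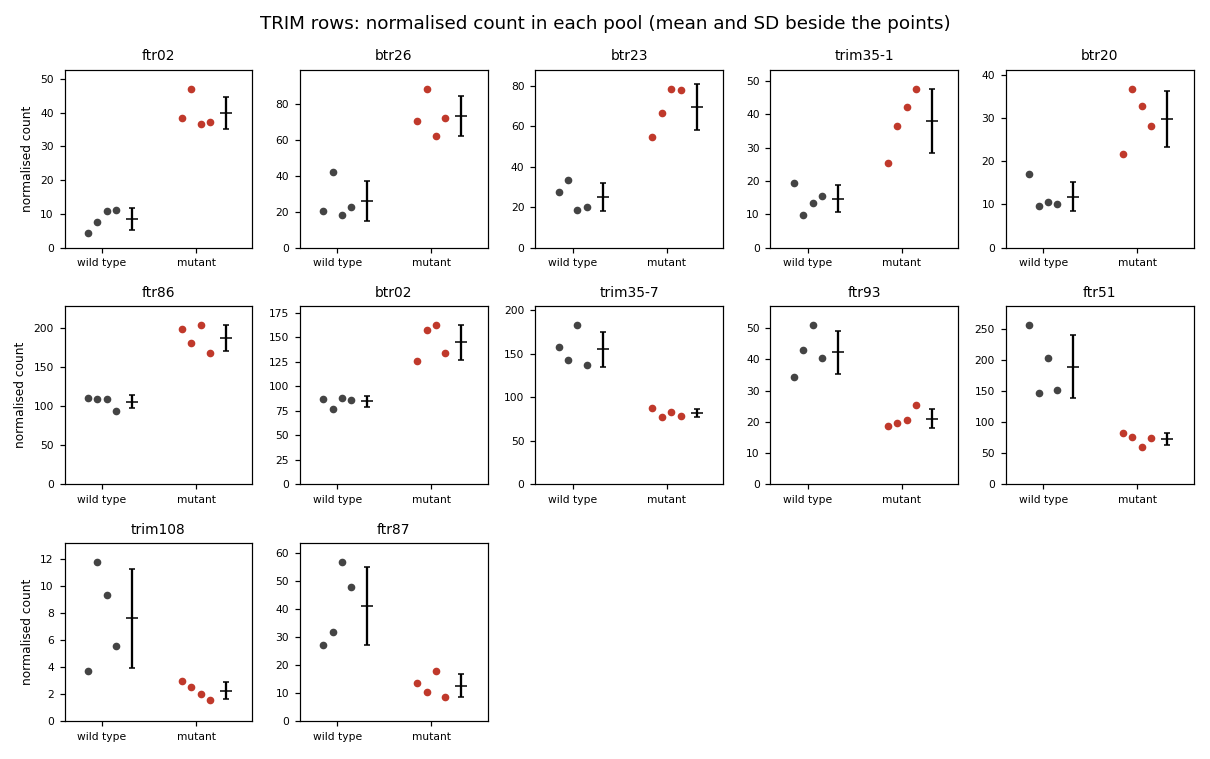
Each panel gives the normalised count (vertical axis, from 0) of 1 TRIM row in the 4 wild-type pools (grey) and 4 mutant pools (red), in order of pool number, with the mean and SD beside the points. In ftr02 the mutant pools lie between 36.7 and 47.1 and the wild-type pools at or below 11.2; in trim35-7 the mutant pools lie between 77.4 and 87.2 and the wild-type pools between 137 and 183.

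The zinc finger rows divided more evenly. Over the 29 rows the summed level was 2437, 2425, 2496 and 2723 normalised counts in wild-type pools 1 to 4 and 2777, 3461, 3267 and 3598 in mutant pools 1 to 4. The group means of this sum were 2520 and 3276. The row znf1179 alone had means of 403 and 952, so most of the difference came from 1 row. The 17 rows higher in the deposited table summed to 1297 ± 137 (wild type) and 2581 ± 287 (mutant), and the 12 lower ones to 1224 ± 52.4 and 695 ± 74.2 (SD, n = 4 each). That these sums part follows from the split by sign and is given as a level only. The znf rows carry numbers and no described role in the files used here, so they are given by their values.

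Among the rows that rose, znf1117 had 33, 20.8, 11.7 and 23.4 normalised counts in wild-type pools 1 to 4 and 58.2, 56.2, 59.5 and 53 in the mutant pools, 2.56-fold higher (edgeR adjusted p = 0.0170). The row znf1026 followed it closely, with 27.7, 21.3, 12.7 and 24.3 in wild type and 45.8, 51.7, 52.7 and 51.8 in the mutants (log2 fold change 1.24 ± 0.24 (SE), edgeR adjusted p = 0.0161). In both, wild-type pool 3 was the lowest and pool 1 the highest of the group, and the mutant pools were far more even than the wild-type ones. The same wild-type pool 3 was lowest for znf1065, at 53.8, 50.2, 20.0 and 65.7 normalised counts in wild type against 133, 103, 103 and 129 for the mutants (log2 fold change 1.31 ± 0.28, edgeR adjusted p = 0.0316). No mutant pool overlapped the wild-type pools in these 3 rows. Expected counts were not whole in 7 libraries for znf1117 and in 8 for znf1026 and znf1065. These rows may thus share reads and cannot be counted as independent, and whether they do was not tested.

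The row with the most counts, znf1179, rose from 338, 306, 448 and 522 normalised counts to 689.9, 1039.9, 963 and 1114 (log2 fold change 1.24 ± 0.20 (SE), edgeR adjusted p = 0.00584). Mutant pool 1 was its lowest mutant pool and still above the highest wild-type pool. For znf1085 the values were 49.5, 38.4, 49.9 and 34.6 in wild type and 90.1, 97, 101 and 115 in the mutants, 2.32-fold higher and the smallest adjusted p of the zinc finger rows (0.00268 by edgeR). The row znf974 had 40.0, 33.2, 47.4 and 46.4 in wild type and 96.2, 65.8, 97.9 and 69.9 in the mutants, its mutant pools falling into a higher pair, 1 and 3, and a lower pair (log2 fold change 0.98 ± 0.20, edgeR adjusted p = 0.0221). Both pairs were above every wild-type pool, and the groups of znf1085 did not overlap either.

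Smaller rises came from znfl2a, zbtb12.1 and znf1157. The row znfl2a had 54, 51.6, 67.6 and 58.1 normalised counts in wild-type and 111, 99.7, 102 and 108 in mutant pools (1.81-fold, edgeR adjusted p = 0.00673). The BTB zinc finger gene zbtb12.1 went from 204, 148, 179 and 139 to 277, 287, 238 and 269 (1.6-fold, edgeR adjusted p = 0.0227), with wild-type pool 1 the nearest to the mutants. The row znf1157 went from 185, 145, 146 and 196 to 242, 287, 230.1 and 284 (1.55-fold, edgeR adjusted p = 0.0331). In each of these rows every mutant pool was above every wild-type pool. None of the 9 zinc finger rises was called with RLE scaling, under which the log2 fold changes of the latter 2 rows were 0.17 and 0.12.

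Of the 5 zinc finger rows that fell, znf1093 had the smallest adjusted p. Its wild-type pools had 90.4, 98.1, 89.5 and 105 normalised counts and its mutant pools 18.1, 38.5, 36.4 and 41.4, a log2 fold change of -1.53 ± 0.23 (SE; edgeR adjusted p = 0.00442). Mutant pool 1 was the lowest and no mutant pool reached the level of any wild-type pool. The row znf1156 went from 113, 139, 140.3 and 144 to 29.4, 41.4, 36.8 and 81.3 (log2 fold change -1.50 ± 0.27, edgeR adjusted p = 0.0114). Its mutant pool 4 stood above the other 3 and below every wild-type pool. For znf1153 the fall was small but even, from 370.4, 366, 383 and 339.6 to 242, 246, 224 and 255 normalised counts, 1.51-fold lower (edgeR adjusted p = 0.00716). The BTB zinc finger gene zbtb47a went from 117, 129, 121 and 104 to 84.9, 82.6, 62.5 and 77.7 and was called only just (log2 fold change -0.61 ± 0.14, edgeR adjusted p = 0.0485). The row znf1106 rested on few counts, 21.8, 20.0, 12.4 and 28.6 in wild type and 2.96, 5.06, 4.02 and 10.5 in the mutants (log2 fold change -1.84 ± 0.40, edgeR adjusted p = 0.0330). In zbtb47a and znf1106 the groups did not overlap, as in the other 3 and in 89.5% of all listed genes.

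The lowest deposited log2 fold change of the members, -3.56 in the authors' deposited table, was that of znf1165. Its expected counts were 20.0, 10.7, 6.25 and 2 in wild-type pools 1 to 4 and 0.56, 0, 0 and 1.91 in the mutant pools. As normalised counts, wild-type pool 4 (1.84) lay below mutant pool 4 (2.02), so the groups overlapped, and the row was too low to be tested. The ratio of its summed counts was 0.0600 (95% exact binomial interval 0.00702 to 0.232, counting error only).

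A further 14 zinc finger rows were tested and not called, 8 with higher and 6 with lower values in the mutants. The higher ones were znf1066, znf973, znf986, znf1077, znf1104, znf1162, znf1102 and znf1081, with log2 fold changes of 0.60 to 2.18 and edgeR adjusted p-values of 0.0638 to 0.185. The lower ones were znf1083, znf1143, znf1136, znf1147, znf1072 and znf1082, from -1.65 to -0.60, with 0.0547 to 0.230. In 10 of these 14 the 4 wild-type and 4 mutant values did not overlap. Over all members 41 of 49 did not overlap (24 zinc finger and 17 TRIM rows), beside 89.5% of the listed genes, which had been selected for a difference.

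Single pools decided several of these calls. Mutant pool 1 was the lowest of the mutant pools in 16 of the 29 zinc finger rows, against 3, 6 and 4 for pools 2, 3 and 4. Among the 20 TRIM rows it was the lowest in 6 and the highest in 6. This pool stood apart over the whole table too: its listed counts differed from those of the other mutant pools by a chi-square per degree of freedom of 16.3 to 18.7. The values were 2.40 to 3.74 among those pools and 4.47 to 11.8 among the wild-type pools. Genes with many counts can dominate this measure. Without it 14 zinc finger rows (10 higher and 4 lower) and 12 TRIM rows (9 and 3) were called. The row znf973 had 10.9, 27.2, 18.6 and 25 normalised counts in wild-type and 16.6, 57.2, 70.9 and 76 in mutant pools, so that mutant pool 1 lay among the wild-type pools and the others far above. Without mutant pool 1, znf973 (log2 fold change 1.73), znf986 (1.09) and znf1104 (1.01) were called, with edgeR adjusted p-values of 0.00573, 0.00513 and 0.00492. The row znf1066 had 0, 16.5, 4.47 and 3.56 normalised counts in wild type against 27.4, 28.4, 33.3 and 23.3 for the mutants and was called without wild-type pool 2 (edgeR adjusted p = 0.00806). The rows znf1077, without wild-type pool 4 (0.0460), and znf1143, without wild-type pool 1 (0.0299), were called as well.

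In the other direction, 5 of the 14 zinc finger calls held in all 8 fits that left out 1 pool: znf1179, znf1085, znfl2a, znf1153 and znf1093. Each such fit kept 6 to 12 of the 14 calls, beside 525 to 684 of the 752 over the table. Here too the log2 fold change of a row whose call was lost moved by less than its SE in the fit with all pools. The call of znf1156 was lost without mutant pool 2 or 3 (edgeR adjusted p of 0.0505 and 0.0530) and that of znf1026 without mutant pool 2, 3 or 4 (0.0566 to 0.0599). For znf1117 the fits without wild-type pool 2 or 4 or mutant pool 2 or 3 gave 0.0511 to 0.0598, and for zbtb12.1 those without wild-type pool 2 or 4 or mutant pool 2 or 4 gave 0.0686 to 0.0909. The znf974 call was lost without wild-type pool 1, 2 or 4 or mutant pool 1 or 3 (0.0512 to 0.0850). For znf1065, wild-type pool 1 or 2 or any mutant pool ended the call (0.0634 to 0.112), and for znf1157 wild-type pool 1, 2 or 3 or mutant pool 2, 3 or 4 (0.0522 to 0.129). The znf1106 call was lost without wild-type pool 1, 2 or 4 or mutant pool 1, 2 or 3 (0.0723 to 0.126), and that of zbtb47a without any pool but mutant pool 1 (0.0653 to 0.147).

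**Figure D3:**
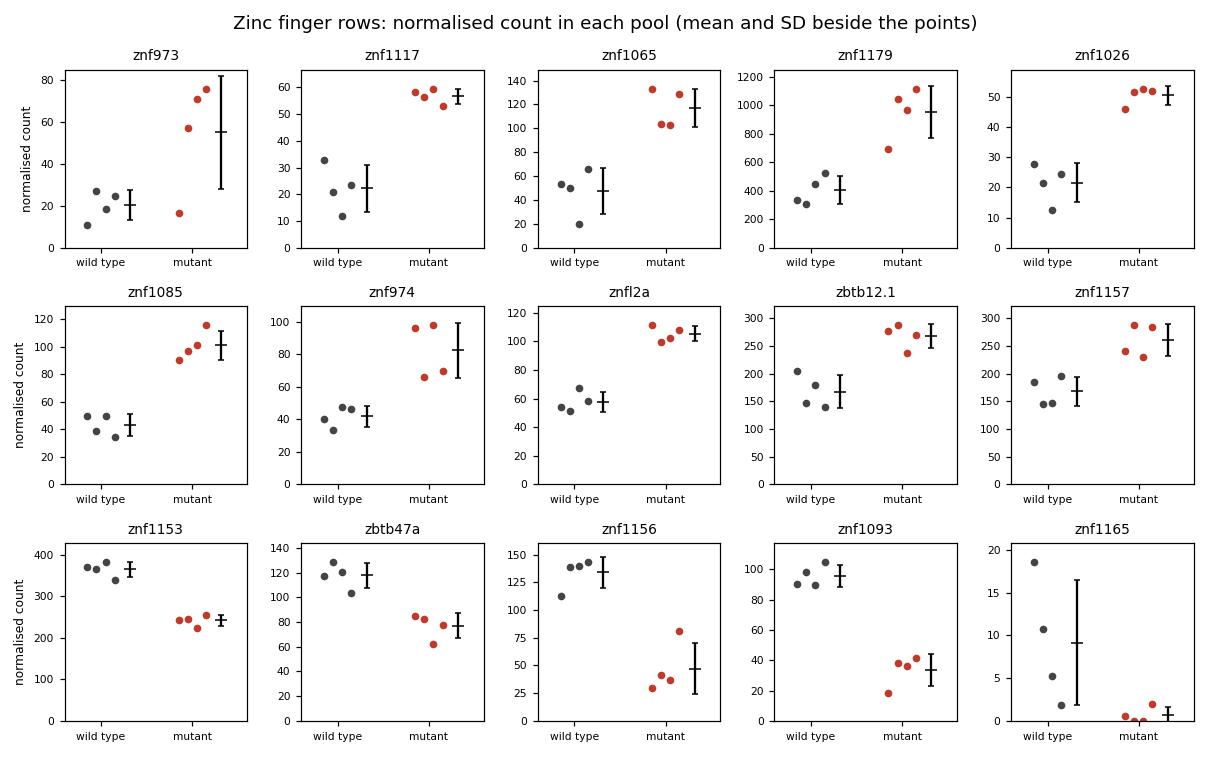
Each panel gives the normalised count (vertical axis, from 0) of 1 zinc finger row in the 4 wild-type pools (grey) and 4 mutant pools (red), in order of pool number, with the mean and SD beside the points. In znf973 mutant pool 1 lies at 16.6 among the wild-type pools, and in znf1065 wild-type pool 3 lies at 20.0, below the other wild-type pools.

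Many members did not have whole counts. RSEM divides a read that matches several genes between them, which gives expected counts that are not whole numbers. Of the 29 zinc finger rows 28 had a fractional count (more than 0.025 from a whole number) in 1 or more libraries, and of the 20 TRIM rows 16 did, beside 53.8% of all listed genes. Of single nonzero values, 89.0% were fractional in the zinc finger rows, 60.1% in the TRIM rows and 41.4% in the whole table. The share was 93.6% for the 26 numbered znf rows, 66.1% for btr, 58.3% for ftr and 43.8% for zbtb, and 12 of 24 values for the 3 trim rows. Reads can also be divided between overlapping genes, and a whole count does not show that no read was shared. The files do not say with which gene a read was shared.

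The 5 members with whole counts in every library were zbtb12.1, trim35-1, ftr86, ftr93 and ftr87, and all 5 were called, 3 higher and 2 lower. Of the 44 others 22 were called (15 higher and 7 lower), and 5 of the 44 could not be tested, beside 66.8% called in the whole table. Whether whole and fractional rows differ in this was not tested. In 23 of them, 15 zinc finger and 8 TRIM rows, every nonzero value was fractional, with 14 higher and 9 lower by deposited value. The zinc finger rows among them were 7 higher and 8 lower, and the TRIM rows 7 higher and 1 lower. Of the 16 TRIM rows with any fractional count 13 were higher and 3 lower, beside 2 and 2 of the 4 with whole counts. For the 28 zinc finger rows with any fractional count it was 16 and 12. These splits were not tested either. Those 23 include znf1179, znf1065, znf1026, znf1156, znf1093, znf1153, ftr02, ftr29, btr26, btr23, btr20 and trim35-7. For these rows a count can be moved from 1 copy to another by the division of reads, and how far this entered the fold changes was not tested.

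**Figure D4:**
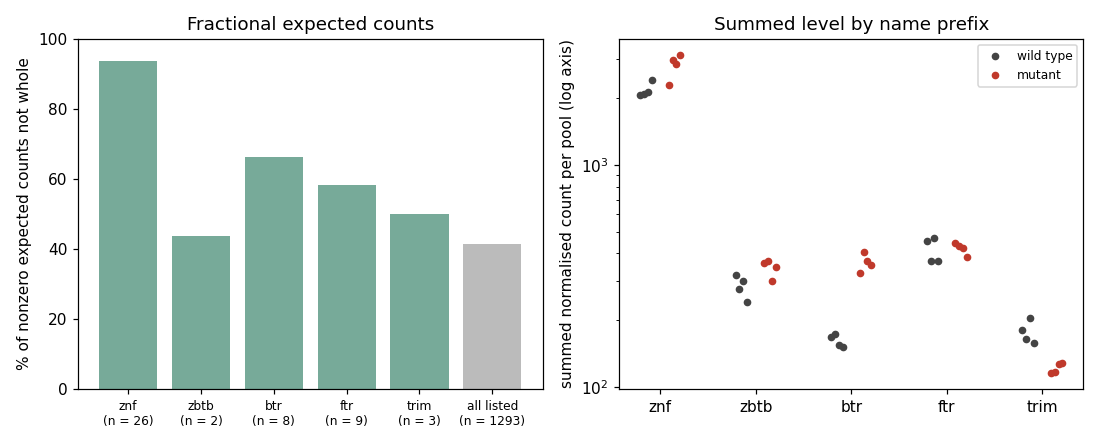
Left, the vertical axis is the percentage of nonzero expected counts that were not whole for the rows of each name prefix and for all 1293 listed genes, 93.6% for znf and 41.4% for all. Right, the vertical log axis is the summed normalised count of each prefix in the 4 wild-type (grey) and 4 mutant (red) pools; the btr sums separate, at 152 to 173 against 325 to 406, and the ftr sums overlap.

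The place of the members was looked up by symbol in RefSeq's GRCz12tu annotation, which is not the build the authors used, so it served only to tell which members are neighbours. Of the 49 symbols 31 were found, 14 zinc finger and 17 TRIM. A chromosome with 7 of the 14 zinc finger rows also held ftr51, and of these 8 rows 5 were higher and 3 lower in the deposited table. Another held 6 TRIM and 2 zinc finger rows, again 5 higher and 3 lower. Of the 8 pairs of successive members with at most 25 protein-coding genes between them, 6 had the same direction and 2 the opposite one. The 2 opposite pairs both included znf1156, which fell. By symbol it lies between znf1179 and znf1157, which rose, with 9 and 19 protein-coding genes between them. The 3 btr rows on 1 chromosome, btr18, btr23 and btr26, all had higher values. Of the 8 pairs, 4 include a row whose Ensembl ID has another symbol in the gene-name table (btr18, ftr29, znf1157 or znf1162), and 1 a row whose ID was not in it (znf1102). In the 3 pairs with the same names in both, 2 had the same direction (btr23 with btr26, and ftr38 with ftr35) and 1 the opposite (znf1179 with znf1156). For the others the place is that of the symbol and may not be that of the row.

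Names of these genes are unsettled. All 49 rows carry an Ensembl ID, of which 46 were in the gene-name table, 39 with the same symbol and 7 with another. The ID of ftr29 is named ftr31 there, that of btr18 is named btr21 and that of znf1085 is named znf1086. The IDs of btr31, znf1153, znf1157 and znf1162 carry clone names there, which give no family. The name table holds 276 zinc finger symbols, of which 25 (9.06%) were listed, and 141 TRIM symbols, of which 18 (12.8%) were listed. For btr it was 7 of 22 (31.8%), for ftr 8 of 74 (10.8%) and for znf 23 of 258 (8.91%), beside 644 of 24784 symbols of any kind (2.60%). Only 644 of the 1293 listed genes carry a symbol of the name table, against 25 of the 29 zinc finger and 18 of the 20 TRIM rows. The 2.60% is therefore too low a base for the family shares. Counted in genes, 1293 of the 26889 that the authors adjusted over were listed. That base is not counted in symbols of the name table, as the family shares are. The other family members were not analysed here.

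Some other genes with related roles were listed as well. Of 142 symbols of further C2H2 zinc finger regulators, 5 were listed, all higher, and 3 of the 5 tested were called, beside 58.9% of listed genes higher and 66.8% called. These were gfi1b, a transcriptional repressor of blood cell formation, from 31.7 ± 1.12 to 70.6 ± 7.3 normalised counts (SD, n = 4 each; edgeR adjusted p = 0.00268), the Kruppel-like factor gene klf4, from 47.8 ± 8.11 to 93.2 ± 3.05 (edgeR adjusted p = 0.00722), and the immediate early gene egr1, from 318 ± 31.9 to 501 ± 48.1 (edgeR adjusted p = 0.0110). The erythroid factor klf1 (log2 fold change 1.46 ± 0.36, edgeR adjusted p = 0.0676) and the lymphoid factor ikzf1 (0.95 ± 0.24, edgeR adjusted p = 0.0668) were not called. For klf1, mutant pool 1 had 35.1 normalised counts and the other mutant pools 121 to 136, and the same pool was the low one for znf973.

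Of 86 symbols of the interferon response and of nucleic acid sensing, 3 were listed, all lower (41.1% of all listed genes were), and 2 were called. The ubiquitin-like modifier isg15, a classical interferon-induced gene, fell from 29.8, 17, 39 and 23 normalised counts in wild-type pools 1 to 4 to 11.7, 10.4, 6.39 and 10.6 in the mutant pools (log2 fold change -1.45 ± 0.32 (SE), edgeR adjusted p = 0.0331). The guanylate-binding protein gene gbp4 fell from 35.4, 64.8, 91.6 and 109 to 26.4, 33.3, 28.1 and 15.9 (edgeR adjusted p = 0.0418). In neither gene did the groups overlap. The myeloid factor gene irf8 was not called (-1.06 ± 0.33, edgeR adjusted p = 0.207). Of 95 symbols of other RING and adaptor ubiquitin ligase genes, 7 were listed, 4 higher and 3 lower, and the test called 1 higher and 3 lower of 6 tested, again beside 66.8% called in all. The widest difference was that of kbtbd7, of the family of Kelch and BTB domain adaptors, with 97.8, 147, 100.1 and 106 normalised counts in wild-type pools 1 to 4 and 0, 2.08, 0 and 2.12 in the mutant pools (edgeR adjusted p = 3.53e-05). No mutant pool had more than 2.12, far below every wild-type pool. The row asb5a, a SOCS box adaptor of cullin ubiquitin ligases, rose (1.61 ± 0.22, edgeR adjusted p = 0.00240) and its relative asb5b fell (-0.60 ± 0.12, edgeR adjusted p = 0.0230). The RING finger gene rnf165a fell from 2448 ± 311 to 1222 ± 136 normalised counts (edgeR adjusted p = 0.00175).

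Listed blood cell markers differed between the same groups of pools as the members. All listed markers had been selected for a difference, and table-wide 58.9% were higher, 41.1% lower and 66.8% of those tested called. Of 36 erythrocyte markers 25 were listed, all higher and 23 called, and their summed level was 53209 to 86715 normalised counts in wild-type pools and 165682 to 216613 in the mutant pools. Globin rows with many counts weigh most in these sums. In klf1, epor and epb41b mutant pool 1 (35.1, 40.0 and 238 normalised counts) lay within the wild-type range, so the groups overlapped. The same pool was the highest for the globin gene hbae1.1. Of 19 neutrophil markers 7 were listed, all higher and called, with sums of 2874 to 3115 and 5207 to 6618. Of 21 macrophage markers 8 were listed, all lower and 6 called, with sums of 20845 to 27571 and 13224 to 18787. The gene apoeb alone, with 20276 to 27103 and 12995 to 18517 normalised counts, made up nearly all of these macrophage sums. Its call was close to the threshold (log2 fold change -0.68 ± 0.16, edgeR adjusted p = 0.0452). None of the listed markers was at 0 throughout a group. The lists are not separate, as klf1 also counts among the C2H2 regulators above and irf8 among the interferon genes. Their part in the differences of the zinc finger and TRIM rows was not tested.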

How the data were processed

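For 1293 selected genes the deposited table gives, per the file headers, 1 value per library and the authors' comparison of mutant with wild type (log2 fold change, the same as a linear fold, p-value and adjusted p-value). Per the submitters' processing notes, the tools were RSEM, STAR 2.7 and Trimmomatic and the build danRer11. The annotation, strand setting and comparison tool were not stated. The deposited library values are RSEM expected counts, each multiplied by 1 of 8 factors (0.978 to 1.03, product 1) that cycle over the cells. Dividing by the factor of best match made all 10152 nonzero values multiples of 0.01. Expected counts were rounded for the tests. Size factors came from medians of ratios within each group (genes averaging at least 50) and 1 offset between groups (-0.23 on the log2 scale) set by the authors' fold changes, so the scale between groups rests on theirs.

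The table was fitted with edgeR 4.0.16 (R 4.3.3; filterByExpr at 10 and 15, glmQLFit, glmQLFTest). Benjamini-Hochberg adjustment ran over 26889 genes, the number behind the deposited adjusted p-values, with genes outside the table at 1. This setting can only raise the adjusted p-values, so verdicts near the threshold depend on it. The filter removed 167 genes. Each SE was the absolute log2 fold change divided by the square root of the F statistic of the test. It thus comes from the same statistic as the p-value and is no separate measure of spread. The steps were tested on simulated data. Alternatives were DESeq2 1.42.0, RLE and TMM scaling, the likelihood ratio test, each library left out, a replicate block, no filter, stricter thresholds and adjustment over the tested genes. The members and lists were chosen with earlier results of these data known. Pool values are given for called members with a mean of 20 or more (at most 14 per family), for those with a group at 3 counts or fewer and for those with a 4-fold range in a group; other rows whose pool values are given were chosen after their values were seen. Planned protein comparisons were not made, as no sequences were used here. Intervals are exact Clopper-Pearson ones.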

Additional observations from a re-analysis of the deposited data

Results flagged for a closer look

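Dixon's test was run on the most extreme pool of each group, for the 49 members and the summed level of both families. A pool stood apart in 7 of 102 groups, about 5.1 of which chance alone would give, and members that share reads or pools are not independent. Among the zinc finger rows, mutant pool 1 was the lowest of its group for znf1026, with 45.8 normalised counts against 51.7 to 52.7. Wild-type pool 1 was the lowest for znf1156 (113 against 139 to 144) and for znf1082 (14.5 against 24.0 to 25.4). Among the TRIM rows, mutant pool 3 was the lowest for btr31 (10.2 against 11.4 to 11.7) and wild-type pool 4 for ftr86 (94.0 against 109 to 111). Wild-type pool 3 was the highest for ftr35 (4.06 against 2.65 to 2.70) and wild-type pool 1 for btr20 (17.0 against 9.62 to 10.7). All 7 differences left the mutant and wild-type values of the row apart.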

How the results depend on the processing

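None of the 44 tested members changed direction in the fits run (with RLE and TMM all but btr31, which then missed the count filter, and those shifts could not turn a sign). The 5 untested ones have no value in the main fit to compare with. They did enter the fit without the count filter and that of DESeq2, and neither called any of them. The 752 calls over the table were 433 at an adjusted p under 0.01 and 490 when a log2 fold change of at least 1 in size was also required. The 14 zinc finger calls were 25 with the likelihood ratio test, 28 when adjusted over the tested genes alone, 5 at 0.01 and 8 with the fold threshold, and 6 to 14 with 1 pool left out. Over the table the likelihood ratio test called 1052 of the 1126 tested genes, and adjustment over the tested genes alone called all 1126. The 28 was thus fixed by the selection of the table. The 13 TRIM calls were 6 with RLE, 7 with TMM, 7 at 0.01 and 8 with the replicate block, and 7 to 13 with 1 pool left out. Counts fell by more than 1.5 times without mutant pool 2 (6 zinc finger and 7 TRIM calls), mutant pool 3 (6 zinc finger), mutant pool 4 (9 zinc finger), wild-type pool 2 (8 and 8) and wild-type pool 4 (7 TRIM). Over the table, leaving out 1 pool gave 535 to 799 calls. DESeq2 called 17 zinc finger and 14 TRIM rows, beside 912 genes over the table (525 higher and 387 lower). RLE and TMM over genes selected for a difference have no unchanged majority to rest on, and 5 of the 10 zinc finger calls with RLE were shared with the main ones. Same-numbered pools did not deviate together (correlations -0.25 to 0.09 over 4 pairs, beside -0.36 to 0.34 for pools of different number). The labels do not say whether the numbers pair the samples, and so few correlations cannot exclude a pairing of small effect. With the replicate block 542 genes, 10 zinc finger and 8 TRIM rows were called. Low counts limit the smallest rows: 5 members missed the count filter of the main test.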
